A study of Mus musculus with 4 samples.

Results

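Cholesterol genes were described in RNA-seq libraries of Lin−LEPR+ bone marrow cells from elderly vs. mature mice, in 3 groups chosen by gene function: 19 enzymes of sterol synthesis, 8 genes of sterol control, and 10 genes of cholesterol efflux, storage and transport. Of these 37 genes, 36 were matched to counted transcripts and 35 could be tested, among 21340 genes tested in all. Hmgcs1, which makes HMG-CoA at the start of the pathway, was not analysed here. Idi1, which converts isopentenyl diphosphate to its isomer, had no exonic base that another transcript did not share, so none of its reads could be counted.

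All animals were wild-type C57Bl/6 mice, and the methods describe them as males on standard chow. Mature mice were 3 months old and elderly mice 24 months old, with 2 libraries per age and no other treatment or allele. According to the methods, total RNA of 3 or 4 animals was combined before library preparation, although each library is titled as a mouse. No source says whether the libraries of 1 age came from separate pools, so p-values measure only the spread between these libraries, which may be in part technical. The methods describe a sort for cells that lack Ter119, CD31 and CD45 (Lin−) and carry the leptin receptor LEPR, a surface marker of marrow stromal cells, whereas the sample labels name bone marrow as the source. All 10 stromal markers examined, among them Lepr and Cxcl12, had counts in the libraries, and their summed level was 29895 and 30499 CPM in mature and 18651 and 26848 CPM in elderly libraries. CPM are counts scaled to a common library size and by a trimmed-mean (TMM) factor. The median log2 fold change of these markers, elderly over mature, was -0.32. It was above 0 for 0 of 10, and none had an edgeR adjusted p under 0.05. The libraries held 10472117 to 15650518 counts. In such bulk libraries, fewer cells of a type and less RNA per cell cannot be told apart.

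Cells build cholesterol from acetyl-CoA through mevalonate, isoprenoid diphosphates, squalene and lanosterol. When membrane sterols are low, the escort protein Scap carries the transcription factor SREBP2, the product of Srebf2, from the endoplasmic reticulum to the Golgi, where it is cut and released to turn on the enzymes of the pathway, whereas the Insig proteins hold the complex back when sterols are plentiful. The LXR receptors, Nr1h2 and Nr1h3, sense oxysterols and turn on genes of cholesterol export. LEPR+ stromal cells are progenitors of marrow adipocytes and osteoblasts and secrete factors that maintain blood stem cells.

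Enzymes of sterol synthesis, SREBP2, Insig1 and the cholesterol carrier Stard4 were among the genes higher in elderly cells, and no member was called lower. With p-values adjusted over the 21340 genes and a threshold of 0.05, 7 of 35 members were called, all of them higher in elderly cells: Mvd, Fdps, Fdft1 and Cyp51 of the synthesis enzymes, Srebf2 and Insig1 of the control genes, and Stard4 of the transport genes. Over all genes tested, 2.73% were called, 2.28% higher and 0.45% lower, and among 15019 genes kept by edgeR's stricter filterByExpr 3.18% were called higher. The ages did not overlap for 25 members, of which 22 had the higher levels in both elderly libraries and 3 in both mature libraries, whereas this held for 22.9% and 18.1% of all genes. The median log2 fold change was 0.74 over 17 synthesis enzymes, 0.24 over 8 control genes and -0.011 over 10 transport genes, beside 0.016 over all genes tested. Log2 fold changes above 0 mean more in elderly cells.

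More calls were lost when an elderly library was left out than when a mature one was. In such fits 1 library stood alone for an age and was assumed to vary like the other age. The lowest and highest log2 fold changes of Mvd, Fdps, Fdft1, Insig1 and Stard4 both came with a mature library left out. For Cyp51 the lowest came without elderly library 2, and for Srebf2 the highest without elderly library 1. Without elderly library 2, 0 of 20580 genes and 0 members were called by edgeR, with 8 members and 1637 genes at an unadjusted p under 0.05, and all 7 of the members named above had an adjusted p of 0.601. Without elderly library 1, 2 of the 7, Insig1 and Stard4, remained called, among 40 genes in all. Without mature library 1 or mature library 2, the call of Srebf2 alone of the 7 was lost. The log2 fold changes of the 7 lay between 0.92 and 2.57 without mature library 1. They lay between 0.94 and 1.93 without mature library 2. With edgeR's exact test and a preset dispersion of 0.2, as in the methods, 233 genes were called and 0 of the members. At an unadjusted p under 0.05 this test had 7 of the 35 members and 1598 of 21340 genes. The direction of the 7 differences was the same in each of these fits.

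**Figure D1:**
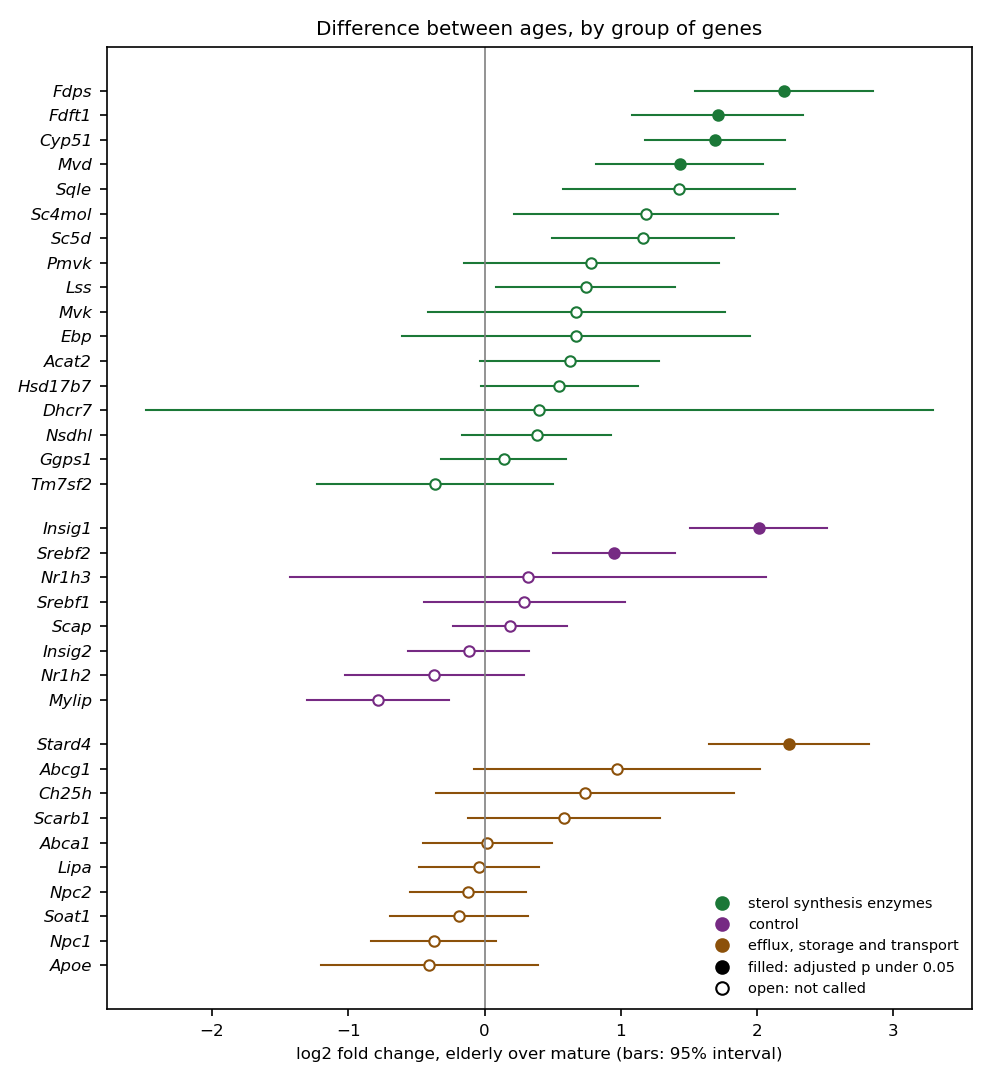
Log2 fold change of each tested member, elderly over mature (horizontal axis), for 17 synthesis enzymes, 8 control genes and 10 transport genes. Circles are estimates from 2 libraries per age, bars are 95% intervals of the fit, and filled circles have an adjusted p under 0.05. The 7 filled circles all lie right of 0, and the synthesis enzymes lie right of 0 except Tm7sf2.

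Of the 17 synthesis enzymes tested, 16 had a positive log2 fold change, compared with 51.2% of all genes, and 4 were called. For 15 enzymes each elderly library exceeded each mature library, and for none the reverse held, compared with 22.9% and 18.1% of all genes. The 15 include Dhcr7, at 3 to 5 counts per library, and Ebp, at 10 to 29 counts. The levels of the 17 enzymes summed to 233 and 242 CPM in the mature libraries and to 384 and 508 CPM in the elderly libraries. The elderly sum was 1.88-fold the mature sum, 446 ± 88.2 vs. 238 ± 6.12 CPM (SD, n = 2). The enzymes were then read in the order of the pathway, in 3 stretches that were set after the values were seen.

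In the mevalonate and isoprenoid stretch, all 6 enzymes tested had higher levels in both elderly libraries, beside 22.9% of all genes. Their median log2 fold change was 0.73. Fdps, which makes farnesyl diphosphate, the branch point between sterols and protein prenylation, was counted at 7.57 and 5.32 CPM in the mature libraries and at 25.2 and 34.0 CPM in the elderly libraries. The lowest elderly value was over 3 times the highest mature value, and the log2 fold change was 2.20 (95% interval 1.55 to 2.85, edgeR adjusted p = 0.0019). Mvd, which decarboxylates mevalonate diphosphate, was counted at 6.71 and 7.29 CPM in the mature libraries and at 18.5 and 19.3 CPM in the elderly libraries. The libraries of each age lay close together, and the log2 fold change of 1.43 (95% interval 0.82 to 2.04, adjusted p = 0.0165) changed least of the synthesis calls when libraries were left out, between 1.37 and 1.45. Fdps is on chromosome 3 (chr3:88897514-88905881, mm9) and Mvd on chromosome 8 (chr8:124957496-124967322, mm9).

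The other enzymes of this stretch were not called. Acat2, which joins acetyl-CoA units in the cytosol, had 7.57 and 8.15 CPM in mature and 10.3 and 13.9 CPM in elderly libraries, and its log2 fold change was 0.62 (standard error 0.30, adjusted p = 0.482). Pmvk, which adds the second phosphate to mevalonate, had 2.67 and 2.06 CPM in mature and 3.50 and 4.62 CPM in elderly libraries (log2 fold change 0.78, standard error 0.43, adjusted p = 0.567). Mvk, which adds the first, had 1.98 and 1.54 CPM in mature and 3.41 and 2.24 CPM in elderly libraries (log2 fold change 0.67, standard error 0.50, adjusted p = 0.698). For these 3 genes both elderly libraries lay above both mature ones, as for 22.9% of all genes, and none was called. Mvk rested on 18 to 38 counts per library and Pmvk on 24 to 70. Ggps1, which makes geranylgeranyl diphosphate for prenylation and stands beside the sterol branch, lay between 47.9 and 57.5 CPM in the 4 libraries (log2 fold change 0.14, 95% interval -0.32 to 0.60).

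Between squalene and lanosterol, all 3 enzymes had higher levels in both elderly libraries, beside 22.9% of all genes. Their median log2 fold change was 1.43. Fdft1, squalene synthase, the first enzyme committed to sterols, was counted at 23.3 and 13.4 CPM in the mature libraries and at 50.6 and 69.4 CPM in the elderly libraries. The log2 fold change was 1.71 (95% interval 1.08 to 2.34, adjusted p = 0.0072), and the ages were separated although the mature libraries differed from each other. Sqle, squalene epoxidase, had 1.98 and 3.26 CPM in mature and 6.65 and 7.46 CPM in elderly libraries, with a log2 fold change of 1.43 that was as large as that of Mvd but was not called (standard error 0.39, adjusted p = 0.0883). Lss, which closes the sterol rings to form lanosterol, had 6.28 and 6.77 CPM in mature and 10.7 and 11.2 CPM in elderly libraries, close within each age, and its log2 fold change was 0.74 (standard error 0.30, adjusted p = 0.338). Fdft1 lies at chr14:63763990-63796630 (mm9).

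Between lanosterol and cholesterol, 7 of 8 enzymes had a positive log2 fold change and 1 was called, beside 51.2% and 2.73% of all genes. Both elderly libraries lay above both mature ones for 6, beside 22.9% of all genes. Among the 6 was Dhcr7 at 3 to 5 counts per library. Cyp51, the lanosterol demethylase, was counted at 28.3 and 22.3 CPM in the mature libraries and at 70.6 and 93.0 CPM in the elderly libraries. The ages were far apart relative to the spread within them, with a log2 fold change of 1.69 (95% interval 1.18 to 2.21, adjusted p = 0.0021). Sc5d, which introduces a double bond into the sterol nucleus, had 9.98 and 6.26 CPM in mature and 16.9 and 19.5 CPM in elderly libraries (log2 fold change 1.16, standard error 0.31, adjusted p = 0.0742). Sc4mol, now named Msmo1, a methyl sterol oxidase, had 5.68 and 1.89 CPM in mature and 8.0 and 9.17 CPM in elderly libraries (log2 fold change 1.18, standard error 0.45, adjusted p = 0.279). Its mature libraries differed from each other by more than those of any other synthesis enzyme, and its log2 fold change was 2.18 without mature library 1, where it was called (adjusted p = 0.0014), and 0.55 without mature library 2 (adjusted p = 0.752). Cyp51 lies at chr5:4081145-4104746 (mm9).

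Ebp, a sterol isomerase, had 0.86 and 1.63 CPM in mature and 2.07 and 1.91 CPM in elderly libraries, from 10 to 29 counts, and a log2 fold change of 0.67 (standard error 0.59). Nsdhl and Hsd17b7, which act in removing the methyl groups of lanosterol, had log2 fold changes of 0.38 and 0.55, with levels of 16.0 to 21.7 CPM and 61.5 to 139 CPM over the 4 libraries, and neither was called. Tm7sf2, a sterol reductase, had levels that overlapped between ages, from 2.87 to 5.57 CPM, and the lowest log2 fold change of the enzymes, -0.36 (standard error 0.40). Dhcr7, the reductase of the last step, had 3 to 5 counts per library, at or next to the limit of 3 counts, which is 0.198 to 0.270 CPM. At this depth no difference in Dhcr7 was detectable.

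**Figure D2:**
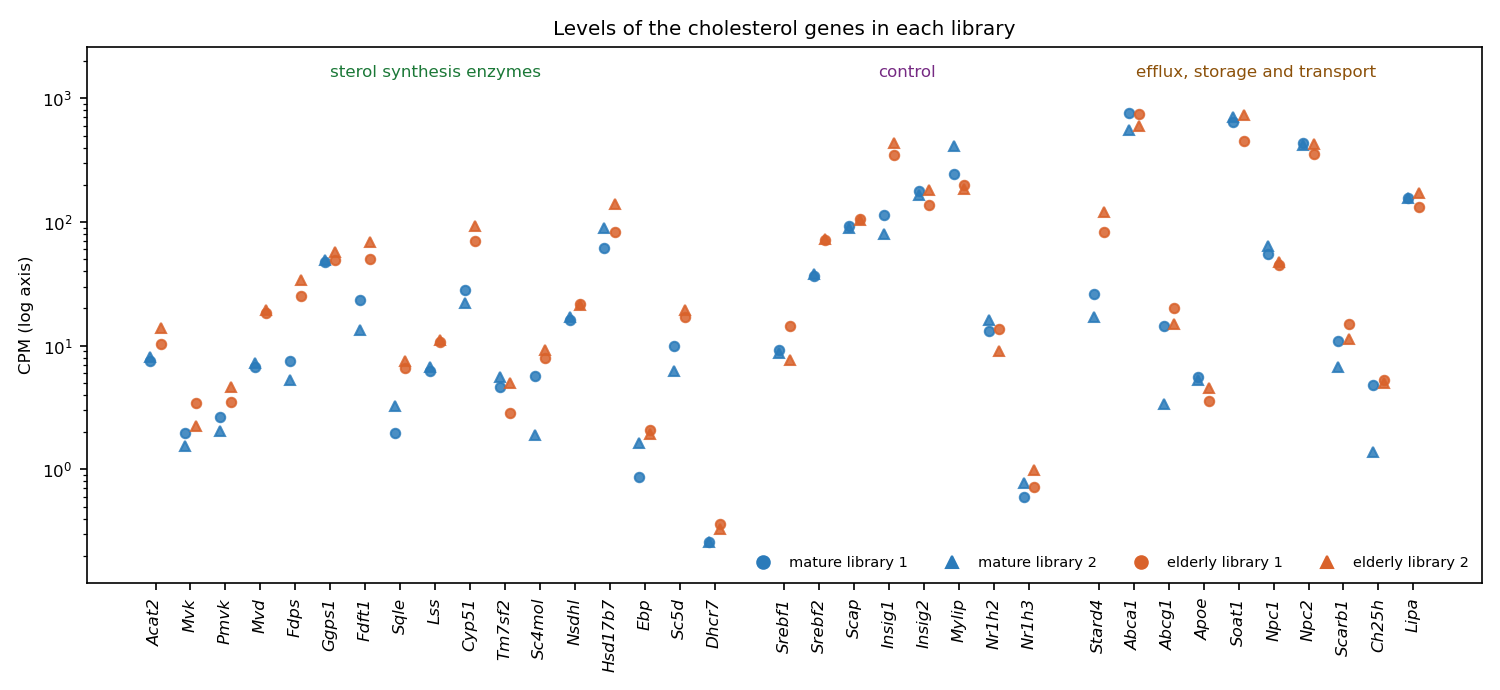
Level of each tested member in each of the 4 libraries, in CPM on a log axis. Circles are library 1 and triangles library 2 of each age, mature in blue and elderly in orange. Both orange points of Mvd, Fdps, Fdft1, Cyp51, Srebf2, Insig1 and Stard4 lie above both blue points, while those of Abca1, Soat1, Npc2 and Lipa are mixed with the blue.

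The elderly libraries also differed from each other in these enzymes. For 13 of 17 enzymes the level was higher in elderly library 2 than in elderly library 1, with a median log2 difference of 0.20, whereas mature library 2 was above mature library 1 for 9 of 17, with a median log2 difference of 0.036. Fdps, Fdft1 and Cyp51 were among those higher in elderly library 2, while Mvd was nearly the same in both.

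The counts of several enzymes did not rest on their coding transcripts. Reads on bases shared between transcripts were not in the counts, so a gene was measured on the bases that each of its transcripts held alone. For 25 of 35 members at least 50% of the counts were on protein-coding transcripts, and these include 10 of 17 synthesis enzymes, 6 of 8 control genes and 9 of 10 transport genes. All the counts of Mvk, Sqle, Tm7sf2 and Nr1h2 were on transcripts annotated with a retained intron, as were 97.7% of those of Lss, 77.2% of those of Sc4mol and 66.7% of those of Ebp. Of the counts of Pmvk, 26.8% were on its protein-coding transcript. The 7 called members were on the other side of this split, with 98.1% to 100% of their counts on protein-coding transcripts.

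The 10 synthesis enzymes counted mainly on coding transcripts had a median log2 fold change of 0.89, and the 7 others a median of 0.74. All 4 synthesis calls were among the former. Of the 7 others, 6 had both elderly libraries above both mature libraries, beside 22.9% of all genes. For Sqle this difference was one of intron-holding transcripts, and no measurement of its coding transcripts was possible, since neither had a base of its own. The split was set after the values were seen. Ebp had a log2 fold change of -0.32 (standard error 0.97) when counts on protein-coding transcripts alone were used.

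In a fit per transcript, the calls of 4 synthesis, 2 control and 1 transport transcript fell on 1 protein-coding transcript of each called gene, beside 1.66% of 42413 transcripts called, 1.44% higher. The adjusted p was 2.5e-04 for the transcript of Fdps, 0.0119 for Mvd, 0.0015 for Fdft1, 5.5e-04 for Cyp51, 0.0412 for Srebf2, 4.8e-05 for Insig1 and 6.2e-05 for Stard4. These numbers come from the same reads as the gene counts and add no independent evidence. Of the transcripts with a retained intron, Cyp51-003 had 1, 8, 7 and 38 counts in mature libraries 1 and 2 and elderly libraries 1 and 2, and Stard4-002 had 4, 2, 13 and 15 counts.

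**Figure D3:**
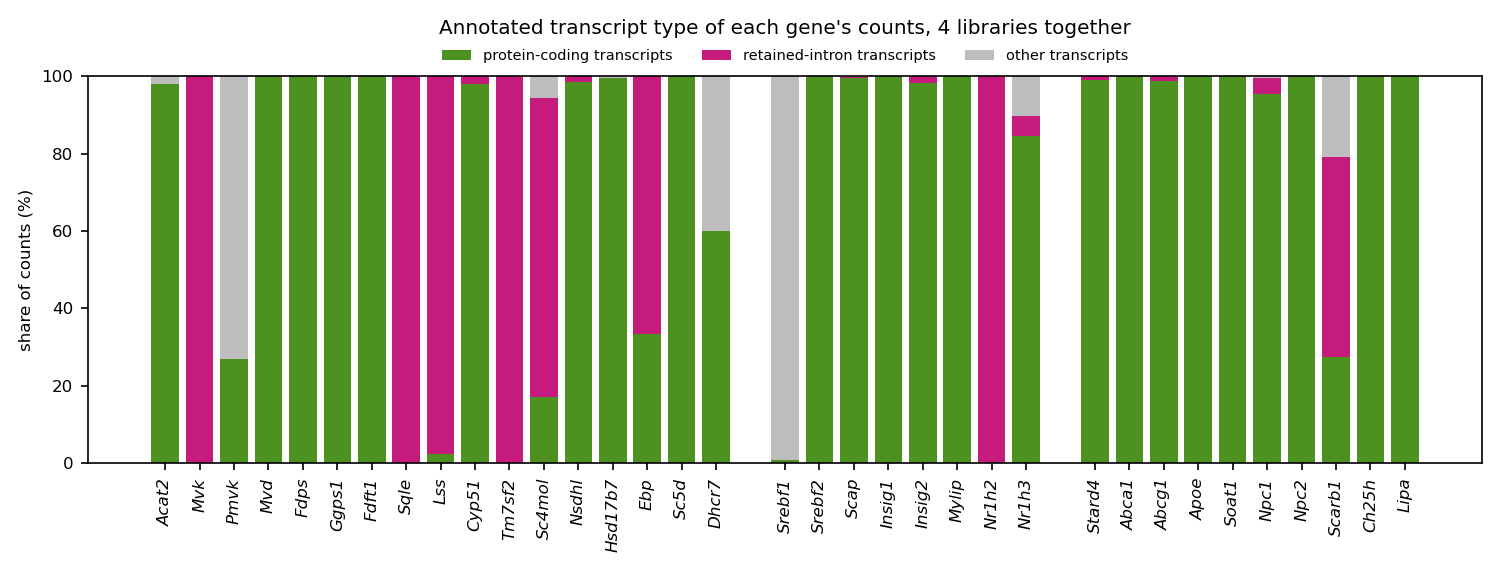
Share of each tested member's counts, in percent over the 4 libraries together, that fell on transcripts annotated as protein-coding (green), with a retained intron (magenta) or of another type (grey). The bars of Mvk, Sqle, Tm7sf2 and Nr1h2 are wholly magenta, while those of the 7 called members are almost wholly green.

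Of the 8 control genes, 2 were called, both higher in elderly cells, beside 2.28% of all genes called higher. Insig1, which retains the Scap complex in the endoplasmic reticulum and is itself a well known SREBP target, was counted at 114 and 79.8 CPM in the mature libraries and at 350 and 432 CPM in the elderly libraries. Each elderly value was over 3 times each mature value, with a log2 fold change of 2.01 (95% interval 1.51 to 2.51, adjusted p = 7.6e-04), the 28th smallest p of all genes tested. Insig2, its paralog with the same role, had 178 and 167 CPM in the mature libraries and 138 and 180 CPM in the elderly libraries. Here the ages overlapped, and the log2 fold change was -0.12 (95% interval -0.56 to 0.33, adjusted p = 0.920).

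Per kilobase of countable bases, the level of Insig1 was 0.484 and 0.362 times that of Insig2 in the mature libraries and 1.92 and 1.81 times in the elderly libraries. The paralog with the higher level was therefore Insig2 in both mature libraries and Insig1 in both elderly libraries. This pair was chosen after its values were seen, and the ratio was not tested.

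Srebf2, which encodes SREBP2, had 36.5 and 38.1 CPM in the mature libraries and 71.3 and 72.7 CPM in the elderly libraries. The libraries of each age nearly coincided and the ages were well apart, with a log2 fold change of 0.95 (95% interval 0.50 to 1.40, adjusted p = 0.0281). It was counted on 1561 bases, while its longest transcript has 4989. The log2 fold change stayed between 0.92 and 0.95 when any library was left out, but the call was lost each time. Scap, the escort of SREBP, had 93.0 and 89.4 CPM in mature and 105 and 103 CPM in elderly libraries, a log2 fold change of 0.19 (95% interval -0.23 to 0.61, adjusted p = 0.812).

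Srebf1, which encodes the SREBP1 proteins that turn on fatty acid synthesis, had 9.30 and 8.66 CPM in mature and 14.4 and 7.72 CPM in elderly libraries. The elderly values enclosed the mature ones, and the log2 fold change, 0.29 (standard error 0.34, adjusted p = 0.851), became -0.23 without elderly library 1. Of its counts 0.82% were on protein-coding transcripts, so its coding messages were hardly measured. Insig1 lies at chr5:28397952-28405201 and Srebf2 at chr15:81977696-82035806 (mm9).

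Mylip, an LXR-induced ubiquitin ligase that removes lipoprotein receptors, was the control gene with the lowest log2 fold change. It had 246 and 410 CPM in the mature libraries and 198 and 184 CPM in the elderly libraries. The elderly libraries lay close together below both mature libraries, which differed widely, and the log2 fold change was -0.78 (95% interval -1.30 to -0.26, adjusted p = 0.139). It was not called here, but was called as lower in 6 of 15 alternatives, among them DESeq2 and the fit without mature library 1, with an adjusted p of 0.0057 to 1 over all of them. The log2 fold change was -0.41 without mature library 2 and -1.11 without mature library 1.

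The LXR receptors themselves were not called. Nr1h2 had 13.1 and 16.2 CPM in mature and 13.7 and 9.11 CPM in elderly libraries, which overlapped (log2 fold change -0.37, standard error 0.30, adjusted p = 0.724). Nr1h3 had 7 and 9 counts in mature and 8 and 15 counts in elderly libraries, or 0.60, 0.77, 0.72 and 0.99 CPM. Its log2 fold change of 0.32 has a 95% interval of -1.43 to 2.07, so neither a rise nor a fall of 2-fold could be told from no difference at this depth.

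The median of the control group was not steady. It was 0.24 with all libraries, 0.19 and 0.16 without mature library 1 or 2, and 0.11 and 0.13 without elderly library 1 or 2. Apart from Insig1 and Srebf2, the log2 fold changes of the control genes lay between -0.78 and 0.32. Of the 8 genes, 4 overlapped between ages, beside 12604 of 21340 genes tested.

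Promoters of 4 of the 7 called members are shown to place the sequence elements through which sterol genes are known to be read. SREBP binds sterol regulatory elements together with NF-Y, which binds CCAAT, and Sp1, which binds GC boxes. RefSeq promoter windows (GRCm38.p6, from 250 bases before to 50 bases after each annotated start) were matched for 30 of the 37 genes. Of the called members, Fdps, Fdft1 and Stard4 were not matched. The windows of the called genes Mvd (chr8:122443373-122443672, minus strand), Cyp51 (chr5:4104648-4104947, minus strand), Insig1 (chr5:28071162-28071461, plus strand) and Srebf2 (chr15:82147019-82147318, plus strand) follow, 5′ to 3′. Capitals mark CCAAT on either strand and a sterol regulatory element with at most 1 mismatch on either strand.
Mvd: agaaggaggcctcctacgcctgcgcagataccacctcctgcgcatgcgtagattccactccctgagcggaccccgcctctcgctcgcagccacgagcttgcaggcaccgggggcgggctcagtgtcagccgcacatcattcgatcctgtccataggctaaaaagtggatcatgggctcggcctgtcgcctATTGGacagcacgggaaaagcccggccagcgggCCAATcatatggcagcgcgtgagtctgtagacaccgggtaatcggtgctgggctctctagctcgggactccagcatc
Cyp51: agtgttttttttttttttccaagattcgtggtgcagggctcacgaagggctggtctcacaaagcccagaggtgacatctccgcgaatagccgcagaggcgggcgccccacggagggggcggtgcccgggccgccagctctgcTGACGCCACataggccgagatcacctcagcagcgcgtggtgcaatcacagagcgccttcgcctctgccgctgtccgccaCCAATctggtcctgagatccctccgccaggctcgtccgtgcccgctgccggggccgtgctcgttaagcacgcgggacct
Insig1: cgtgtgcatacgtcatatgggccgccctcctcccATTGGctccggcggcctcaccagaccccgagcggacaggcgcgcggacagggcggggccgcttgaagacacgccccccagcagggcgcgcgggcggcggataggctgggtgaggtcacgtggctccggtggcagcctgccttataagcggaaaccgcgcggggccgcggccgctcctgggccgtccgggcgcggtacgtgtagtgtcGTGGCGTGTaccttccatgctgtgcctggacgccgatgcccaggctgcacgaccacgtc
Srebf2: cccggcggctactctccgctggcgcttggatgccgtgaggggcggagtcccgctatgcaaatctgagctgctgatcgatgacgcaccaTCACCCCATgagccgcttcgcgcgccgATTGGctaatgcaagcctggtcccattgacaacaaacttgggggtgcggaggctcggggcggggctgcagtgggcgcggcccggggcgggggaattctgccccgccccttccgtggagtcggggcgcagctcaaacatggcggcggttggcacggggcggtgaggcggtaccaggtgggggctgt

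Positions count from the annotated start as 1, with the base before it as -1. Mvd holds CCAAT at -27 and its reverse complement at -60, and Cyp51 holds CCAAT at -29. The reverse complement stands at -216 in Insig1 and at -135 in Srebf2. The near matches to the sterol regulatory element begin at -108 in Cyp51, at -162 in Srebf2 and, on the reverse strand, at -9 in Insig1.

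CCAAT, searched on both strands, was in the windows of 15 of 16 synthesis genes matched, compared with 41.1% of 27025 genes. The GC box GGGCGG was in 14 of 16, compared with 38.2%. The sterol regulatory element TCACNCCAC was in 1 of 16, that of Hmgcs1, and in 1.44% of genes, and with at most 1 mismatch, a search added after the strict result was seen, it was in 7 of 16, compared with 26.7%. Among control genes CCAAT was in 5 of 8 and the GC box in 6 of 8, and among transport genes in 3 and 4 of 6. Genes with several windows had more chances of a match, and per window CCAAT was in 15 of 19 for synthesis and in 37.4% of 32851 overall. A match is a description of letters and was not tested against the age difference.

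Of the 10 transport genes, 1 was called, beside 2.73% of all genes. Stard4, a soluble carrier that moves cholesterol between membranes and is a known SREBP2 target, was counted at 26.3 and 17.2 CPM in the mature libraries and at 83.1 and 121 CPM in the elderly libraries. Each elderly value was over 3 times each mature value, and the log2 fold change of 2.23 (95% interval 1.64 to 2.82, adjusted p = 0.0011) was the highest of all members. Npc1, which exports cholesterol from lysosomes, lay between 44.5 and 63.7 CPM, lower in both elderly libraries, with a log2 fold change of -0.37 (95% interval -0.83 to 0.083, adjusted p = 0.581). Per kilobase of countable bases, Stard4 was at 0.362 and 0.205 times the level of Npc1 in mature and at 1.42 and 1.94 times in elderly libraries, a pair chosen after its values were seen.

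The genes of export and storage showed no common direction. Abca1, the LXR-induced pump that loads cholesterol onto apolipoproteins, lay between 554 and 765 CPM, with both extremes in mature libraries, and had a log2 fold change of 0.02 (95% interval -0.45 to 0.49). Abcg1, a pump that delivers cholesterol to lipoprotein particles, had 14.5 and 3.34 CPM in mature and 20.2 and 14.9 CPM in elderly libraries, and its log2 fold change, 0.97 (standard error 0.48, adjusted p = 0.503), was 0.22 without mature library 2 and 2.39 without mature library 1, where it was called (adjusted p = 1.1e-05). The low mature library 2 thus decided its size. Soat1, which esterifies cholesterol for storage, lay between 454 and 731 CPM, with both extremes in elderly libraries, and a log2 fold change of -0.18 (95% interval -0.69 to 0.32).

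Lipa, the lysosomal acid lipase, and Npc2, which hands cholesterol to Npc1, lay between 132 and 172 CPM and between 354 and 434 CPM, with log2 fold changes of -0.04 (95% interval -0.48 to 0.40) and -0.12 (95% interval -0.55 to 0.30). These intervals leave room for moderate differences in either direction. Scarb1, a receptor for high-density lipoprotein, had 10.8 and 6.69 CPM in mature and 15 and 11.3 CPM in elderly libraries (log2 fold change 0.58, standard error 0.33, adjusted p = 0.572). With counts on protein-coding transcripts alone its log2 fold change was -0.77 (standard error 0.49), so that even its direction depended on which transcripts were counted.

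Ch25h, which makes 25-hydroxycholesterol, had 4.82 and 1.37 CPM in mature and 5.30 and 5.01 CPM in elderly libraries (log2 fold change 0.73, standard error 0.51, adjusted p = 0.670), and its log2 fold change was 0.053 without mature library 2 and 1.90 without mature library 1, where it was called (adjusted p = 0.0403). Apoe, the apolipoprotein that macrophages and stroma secrete, was counted at 3.59 to 5.59 CPM on 620 bases, with both elderly libraries below the mature ones and a log2 fold change of -0.40 (standard error 0.37). The summed level of the 10 transport genes was 2116 and 1933 CPM in mature and 1854 and 2133 CPM in elderly libraries, which overlapped. Their median log2 fold change was between -0.12 and 0.12 when each library was left out, so the group had no steady direction.

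Compared per kilobase of countable bases, the transport genes Soat1, Npc2, Abca1 and Lipa stood above every synthesis enzyme at both ages, while the other 6 transport genes stood below the synthesis enzyme Ggps1. Soat1 stood at 141 and 124 CPM per kilobase in mature and elderly cells (means of 2 libraries), Npc2 at 131 and 120, Abca1 at 68.0 and 69.0 and Lipa at 52.8 and 51.2. Of the called synthesis enzymes, Fdft1 went from 8.78 to 28.7, Cyp51 from 7.82 to 25.3, Fdps from 5.23 to 24.0 and Mvd from 3.98 to 10.7 CPM per kilobase. Insig1 went from 36.6 to 148 CPM per kilobase, and so was below Soat1 and Npc2 in mature cells and above both in elderly cells. These orders of means were not tested.

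Other genes of sterol and lipid metabolism were read from 4 further lists. Of 16 genes of fatty acid synthesis, many of them SREBP1 targets, none was called by edgeR, beside 2.73% of all genes. A positive log2 fold change was found for 12, compared with 51.2% of all genes, and the median was 0.36. Both elderly libraries lay above both mature ones for 9 and below for 2, compared with 22.9% and 18.1% of all genes. Fads1, a fatty acid desaturase, had 300.5 and 270 CPM in mature and 427 and 486 CPM in elderly libraries (log2 fold change 0.68, adjusted p = 0.105). Scd2, the stearoyl-CoA desaturase of many tissues outside the liver, had 271 and 274 CPM in mature and 375 and 496 CPM in elderly libraries (log2 fold change 0.68, adjusted p = 0.131). Elovl6, which lengthens fatty acids, had 31.7 and 42.3 CPM in mature and 53.6 and 58.1 CPM in elderly libraries (log2 fold change 0.60, adjusted p = 0.287). In these 3 genes the ages did not overlap, with smaller log2 fold changes than those of the called cholesterol genes.

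Of 29 tested genes among 31 of further lipid transport, 1 was called, beside 2.73% of all genes tested. Both elderly libraries lay above both mature ones for 9 of the 29 and below for 4, beside 22.9% and 18.1% of all genes. Nceh1, which hydrolyses stored cholesterol esters, was counted at 6.63 and 5.66 CPM in mature and at 16.2 and 13.9 CPM in elderly libraries, with the ages well apart, and the log2 fold change was 1.29 (standard error 0.30, adjusted p = 0.0379). Lrp8, a lipoprotein receptor of low level here, had 0.34 and 1.72 CPM in mature and 4.76 and 2.97 CPM in elderly libraries (log2 fold change 1.89, adjusted p = 0.199). Gramd1b, which carries cholesterol from the plasma membrane to the endoplasmic reticulum, had a log2 fold change of 0.76 (adjusted p = 0.208), and Abca2 one of 0.99 (adjusted p = 0.378).

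Neither the branches that use isoprenoids nor the machinery of SREBP processing held a called gene. With 2.73% of all genes called, lists of 13 and 19 genes can hold none without differing from other genes. Of 13 genes of prenylation, ubiquinone and dolichol synthesis, 4 had a positive log2 fold change and the median was -0.11, and Fntb, a farnesyltransferase subunit, had 0.47 (adjusted p = 0.670). Of 19 genes of SREBP cleavage, degradation and cofactors, 9 had a positive log2 fold change and the median was -0.035. Over all genes tested, 51.2% had a positive log2 fold change. Nfya, a subunit of the CCAAT-binding factor NF-Y, had a log2 fold change of -0.38 (adjusted p = 0.609), and Usf2 one of 0.55 (adjusted p = 0.564). Of their counts 2.88% and 1.17% were on protein-coding transcripts, so the coding messages of Nfya and Usf2 were hardly measured.

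**Figure D4:**
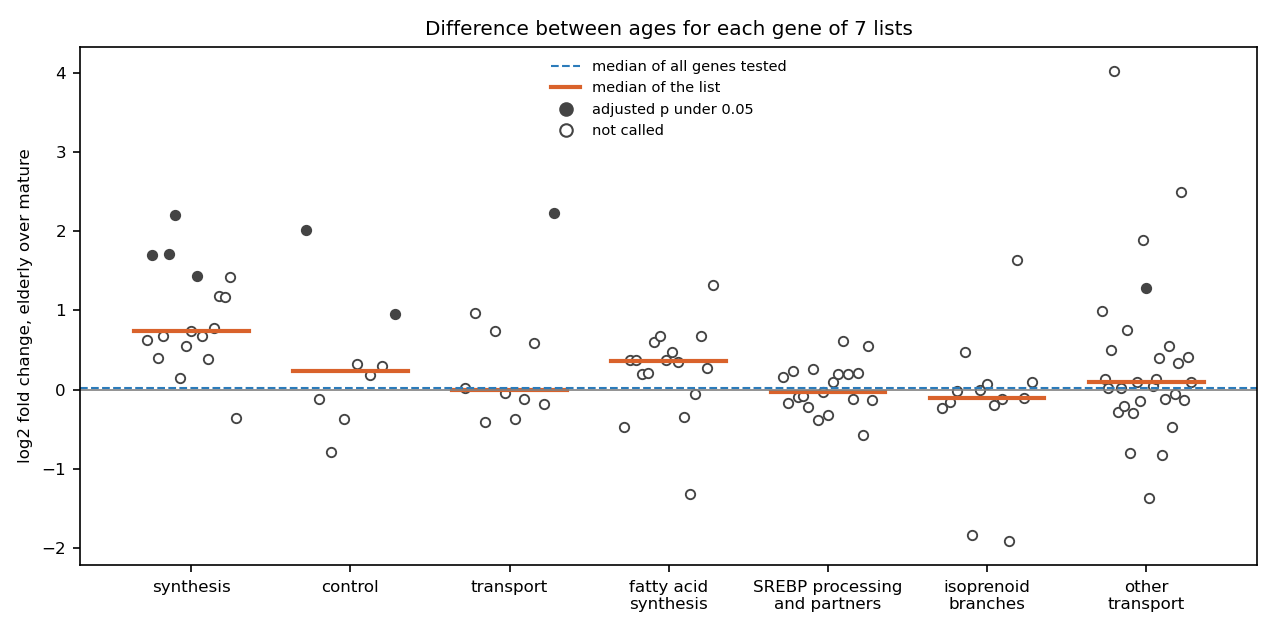
Log2 fold change, elderly over mature, of each tested gene in the 3 groups of members and in 4 further lists. Filled circles have an adjusted p under 0.05, orange bars are list medians, and the dashed line is the median of all 21340 genes tested. The synthesis bar stands at 0.74 and the fatty acid bar at 0.36, while the other bars lie between -0.11 and 0.24.

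Markers of other marrow cells moved with age in the same libraries. Neutrophil markers summed to 2223 and 1261 CPM in mature and to 4759 and 4673 CPM in elderly libraries, with 7 of 11 tested called higher, and erythroid markers to 448 and 202 and to 1495 and 1347 CPM, with 8 of 10 tested called higher. Proliferation genes summed to 426 and 203 CPM in mature and to 1116 and 787 CPM in elderly libraries, with 5 of 14 tested called higher. Macrophage markers summed to 92.5 and 79.4 and to 123 and 167 CPM, with Mrc1, C1qa, C1qb and C1qc called higher among 11 tested. Fcgr1 and Cd163 were at 0 in each library. The largest part of the macrophage sum was Mertk, at 66.1 and 53.3 CPM in mature and 70.3 and 77.7 CPM in elderly libraries (log2 fold change 0.31, not called). Log2 fold changes were above 0 for 10 of the 11, although Csf1r had only 0.01, and Cd68 had -0.61, neither called. In these 4 lists both elderly sums were above both mature sums, as they were for the synthesis enzymes, and their part in the cholesterol results was not tested.

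Adipocyte, endothelial and plasma cell markers also had higher sums in both elderly libraries. Adipocyte markers summed to 58.5 and 63.4 CPM in mature and to 86.2 and 71.4 CPM in elderly libraries, with 0 of 7 tested called and Lep at 0 in each library. Endothelial markers summed to 31.8 and 39.4 and to 48.7 and 47.3 CPM (1 of 8 tested called higher, Tek at 0), plasma cell markers to 142 and 122 and to 152 and 167 CPM (2 of 6 tested called higher, Irf4 at 0). The markers of these lists did not all move together. Log2 fold changes were above 0 for 5 of 7 adipocyte, 6 of 8 endothelial and 3 of 6 plasma cell markers tested. The plasma cell markers Sdc1 and Xbp1 had -0.51 and -0.33 and the endothelial marker Pecam1 -0.83, none of them called. B-lineage markers summed to 771 and 681 CPM in mature and to 515 and 607 CPM in elderly libraries, with Cd79b at 0. Most of this sum was Ebf1, at 728 and 647 CPM in mature and 416 and 541 CPM in elderly libraries (log2 fold change -0.52, adjusted p = 0.310), whereas 9 of 11 tested B-lineage markers had a log2 fold change above 0, with a median of 0.91, and Rag1 was called higher. Within the elderly libraries the order differed between lists. The synthesis, stromal, macrophage, B-lineage and plasma cell sums were higher in elderly library 2, and those of the neutrophil, erythroid, proliferation, adipocyte and endothelial lists were higher in elderly library 1, by little for neutrophil and endothelial markers. Whether any of these cells contributed to the cholesterol values was not tested. Nor was it checked whether the markers at 0 had bases of their own that could be counted, which Idi1 lacked.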

How the data were processed

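RNA-seq libraries of Lin−LEPR+ cells from mature and elderly mice, 2 per age, were grouped by the titles of the sample labels. Per the labels and the methods, the authors removed adapters with CutAdapt, mapped reads with HISAT2 to mm9 and used featureCounts for counting, and the values they deposited are raw counts per Ensembl transcript. The libraries held 11930137 and 11730849 (mature) and 10472117 and 15650518 (elderly) counts. Transcripts were matched to GENCODE M1, except 388 that held at most 0.0888% of the counts, and summed per gene symbol. All 25621 transcripts with no base of their own had 0 counts.

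Genes with a summed count over 2 (21340) were scaled by TMM and compared by edgeR 4.0.16 (R 4.3.3, limma 3.58.1), by its quasi-likelihood F test (2-sided). P-values were adjusted over all genes by Benjamini and Hochberg's method, and calls made at an adjusted p under 0.05. Fits used a prior count of 0.125. Limits of 3 counts cover counting error only. With 2 against 2 libraries, an exact permutation test cannot go below p = 0.333, so adjusted p-values rest on the variance shared across genes (biological coefficient of variation 0.262). Chi-square per degree of freedom between libraries of 1 age was 16.2 (mature) and 34.6 (elderly), so none was a repeat deposit.

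Library values are given for members that were called, that did not overlap between ages with an absolute log2 fold change over 0.58, or that are control genes, and ranges for the rest. Of the other lists, called genes are named, and up to 3 others by smallest p. Members and lists were chosen with earlier results of these data known. The alternatives were DESeq2 1.42.0, edgeR's exact test, the robust fit, other filters, scalings and thresholds, protein-coding transcripts only, the replicate number as a term, and each library left out. The procedure was tested on simulated data. RefSeq promoter windows (GRCm38.p6) were read separately from the mm9 coordinates.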

Additional observations from a re-analysis of the deposited data

How the results depend on the processing

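The 7 member calls held in 10 alternatives: DESeq2, the robust fit, filterByExpr, no filter, library size alone, relative log expression factors, TMM computed after dropping immunoglobulin, hemoglobin and histone genes, the replicate block, protein-coding transcripts only and a prior count of 2. The prior count of 2 left the edgeR adjusted p range of the 7 (7.6e-04 to 0.028) and the 583 genes called unchanged. It was thus no separate check of the calls. The 7 calls were lost under the exact test. That test called 233 genes in all, 0 synthesis, 0 control and 0 transport members, and 204 transcripts. The count of genes called, 583, became 908 in the robust fit and 1157 without a filter, and the 704 transcripts became 398 by library size alone. With each library left out, genes called ranged from 0 to 866, transcripts from 0 to 789, synthesis calls from 0 to 6, control calls from 0 to 2 and transport calls from 0 to 3. A log2 fold change over 1 as a further threshold left 1 control call. The share of calls that were higher in elderly cells was 76.9% to 90% where any were made. Deviations of same-numbered libraries correlated at r = 0.033 over 14361 genes, so no pairing by number was seen across these genes as a whole. A shift shared by number in part of the genes was not tested. The replicate block called 1262 of 21340 genes and 12 members, with a control median of 0.21. The 12 were 7 synthesis and 2 transport members and the control genes Insig1, Srebf2 and, as lower, Mylip.

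The control median was 0.22 with DESeq2, without a filter and with relative log expression factors, 0.16 with filterByExpr, 0.29 by library size alone, 0.23 at a prior count of 2 and 0.11 to 0.19 with a library left out. With protein-coding transcripts only, the medians were 0.87 (synthesis), 0.037 (control) and -0.14 (transport). With a library left out they were 0.73 to 0.86 for synthesis and -0.12 to 0.12 for transport. Directions turned with protein-coding transcripts only for Ebp (-0.32), Srebf1 (-0.19) and Scarb1 (-0.77), and without elderly library 1 for Srebf1 (-0.23, and 0.68 without elderly library 2) and Insig2 (0.048, and -0.32 at the lowest with a library left out). The cause was not tested. Of 356 values of 24 named genes, 310 kept direction and call. A gene not called in the main fit counted as kept where it stayed uncalled in the same direction, so this number says little about the calls. Calls of the main fit were lost in 21 values, calls were gained in 20 and directions turned in 5. Where 1 library stood alone for an age, it was assumed to vary like the other age.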
